A study of Homo sapiens with 12 samples.

Results

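The untreated libraries of a study of hTERT-RPE1 cells are described here: 3 control libraries of 12 in the series. hTERT-RPE1 is a human line started from retinal pigment epithelium and kept dividing by an added telomerase gene. The control cells were grown in DMEM with fetal bovine serum and received no drug, and every gene level below comes from them alone. The 9 libraries of cells treated with reversine, bafilomycin A1 or MG132 were not used. RNA was selected with oligo(dT) and read as 50 nt reads from inserts of 150 to 350 nt. The labels do not say whether the 3 libraries came from separate cultures, so the SD given with each value (n = 3) may be technical. With 1 group of 3 libraries no comparison between conditions exists, and an exact sign-flip permutation test of 2 genes cannot go below p = 0.25. Differences between genes are therefore described by whether their ranges over the 3 libraries overlap.

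Retinal pigment epithelium is the single pigmented cell layer behind the photoreceptors. It recycles retinal for the visual cycle (RPE65, LRAT, RLBP1), makes melanin (TYR, TYRP1, DCT, PMEL), takes up shed photoreceptor tips (MERTK) and secretes factors such as SERPINF1. Many proteins of a cell exist as families of related genes, or paralogues, of which a given cell type uses some and leaves others silent. Muscle cells, for example, use ACTA1 and ACTC1 as their actins, while nearly all other cells use ACTB and ACTG1.

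Levels are in FPKM, fragments scaled to transcript length and to the mapped total, so genes of different length can be compared. Read counts and depth are unknown. Many rows of the deposited table stand not at 0 but at a small value set by transcript length. This value is taken as that of rows without reads and called the no-read floor below. Rows listed at 0 numbered 4240, 2119 and 9118 in controls 1, 2 and 3 and were left out when the floor was fitted. Olfactory receptor genes, which few tissues outside the nose use, lay close to the floor. Over 347 such rows the median level was 1.01 times the floor, and 317 of them stood under 1.5 times the floor. These rows were not left out when the floor was fitted, so this is no independent check of it. A gene is called above the floor when it stood at 1 FPKM or more and at 3 times its floor or more in each library, and at the floor when its mean was under 1.5 times. In 94.6% of protein-coding rows with a floor it was below 5 FPKM in each library, but in 44 rows it reached 50 FPKM or more in some library.

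**Figure D1:**
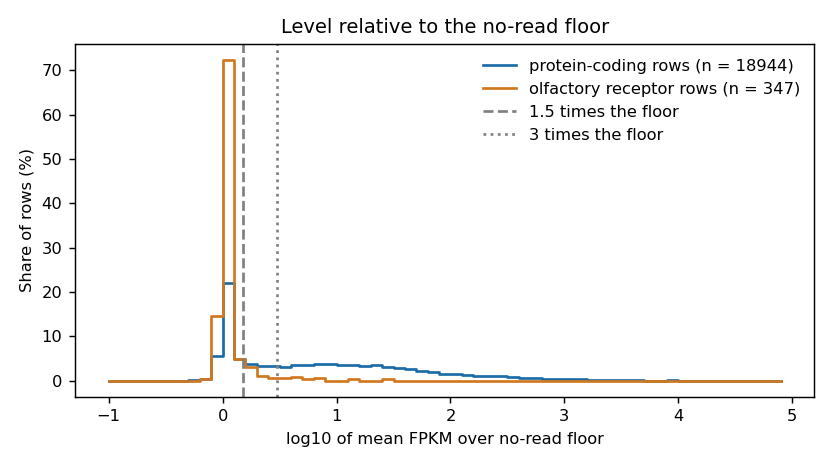
Share of rows (y axis, percent) by log10 of the mean FPKM over the no-read floor (x axis), for protein-coding rows and for olfactory receptor rows, with lines at 1.5 and 3 times the floor. Olfactory receptor rows pile up at the floor, and protein-coding rows form a peak there and a broad shoulder above it.

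Promoter windows of actin paralogues at high and at very low levels are shown first, as an example of a family with a clear choice. ACTB, the most abundant actin, had no entry among the promoters, so ACTG1 alone stands for the abundant actins. Each window below holds the 60 bases before the transcription start, from RefSeq on GRCh38.p14, on the minus strand for the actins and the plus strand for MT2A. Capitals mark TATAAA, the core of the TATA box, searched on both strands; the reverse form, TTTATA, was in 0 of these 4 windows. ACTG1 is the second most abundant actin of these cells, ACTA1 and ACTC1 are the muscle actins, and MT2A, a metal-binding metallothionein, is among the 25 highest genes.
ACTG1, chr17:81512800-81512859: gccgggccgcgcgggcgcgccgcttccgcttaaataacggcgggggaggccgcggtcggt
ACTA1, chr1:229434095-229434154: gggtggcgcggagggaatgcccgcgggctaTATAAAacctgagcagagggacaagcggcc
ACTC1, chr15:34795550-34795609: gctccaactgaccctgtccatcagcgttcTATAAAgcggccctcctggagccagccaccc
MT2A, chr16:56608524-56608583: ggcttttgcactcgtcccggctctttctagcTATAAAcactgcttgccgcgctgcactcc
The letters TATAAA stood in the windows of both muscle actins and of MT2A and not in that of ACTG1. Of 27305 promoters in the RefSeq table, 1 per symbol, 843 (3.09%) held them in the same window, and 327 (1.198%) held the reverse form. The motif thus occurred in genes at both ends of the level scale here. Promoters were matched for 78.5% of nuclear protein-coding rows, under the 80% set for a comparison of promoter features by level, so none was made.

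Of 19052 protein-coding rows, 13002 (68.2%) stood at 1 FPKM or more in every control library. Requiring 3 times the floor as well left 9750 (51.2%), and 1756 of the 13002 were at the floor. Over all 53361 rows of every type, 18118 (34.0%) passed 1 FPKM and 10611 (19.9%) also passed the floor. Among protein-coding rows above the floor, 6645 reached 10 FPKM in every library, 1231 reached 100 FPKM and 108 reached 1000 FPKM. The 3 protein-coding rows at 10000 FPKM or more in every library were VIM, ACTB and GAPDH.

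VIM, the intermediate filament protein of mesenchymal cells, was the highest nuclear-encoded protein-coding gene, at 21881, 16674 and 25592 FPKM in controls 1, 2 and 3. ACTB, cytoplasmic beta-actin, followed at 21169, 18230 and 23179 FPKM. The ranges of VIM and ACTB overlapped, so their order was not separated. GAPDH, the glycolytic dehydrogenase, stood at 12085, 12641 and 12587 FPKM, below both without overlap. The next places went to PFN1, the actin monomer binder profilin, at 7256 ± 1171 FPKM, TUBA1B, an alpha-tubulin, at 7182 ± 575 FPKM, and RPS2, a protein of the small ribosomal subunit, at 6956 ± 650 FPKM.

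Of the 100 highest protein-coding rows, 36 encoded ribosomal proteins, 13 belonged to the cytoskeletal families listed for this report and 11 were encoded in mitochondria. These classes were counted after the values were seen. The translation factor EEF1A1 stood at 4870, 5344 and 5025 FPKM, the galectin LGALS1 at 4947, 4781 and 5866 FPKM, and MT2A at 4928, 5034 and 5272 FPKM. FTH1, the ferritin heavy chain that stores iron, stood at 3794 ± 570 FPKM, and PKM, pyruvate kinase, at 3590 ± 496 FPKM. The lowest and highest library of each of these 5 genes lay less than 1.5-fold apart.

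Ribosomal protein rows were not equal among themselves. The ribosome holds most of these proteins in equal number, but RNA levels do not measure protein numbers. The 76 rows above the floor had a median of 1109 FPKM, with the middle part of the distribution between 506 and 1824 FPKM. RPS2 was the highest of them and RPL22 the lowest at 67.4 FPKM. Some symbols have several rows: RPS18 had a mean of 508 FPKM in its annotated row and 4027 FPKM over 6 rows. How far the spread comes from levels divided between rows was not tested. RPL8 was the most even of the 25 highest genes, at 3868, 3824 and 3865 FPKM. RPL38 was the least even, at 1076, 1085 and 10054 FPKM, and RPL14 stood at 4132, 2849 and 8336 FPKM. In both, control 3 was the high library, and without it the mean of RPL38 would be 1081 FPKM, below the 25 highest genes.

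**Figure D2:**
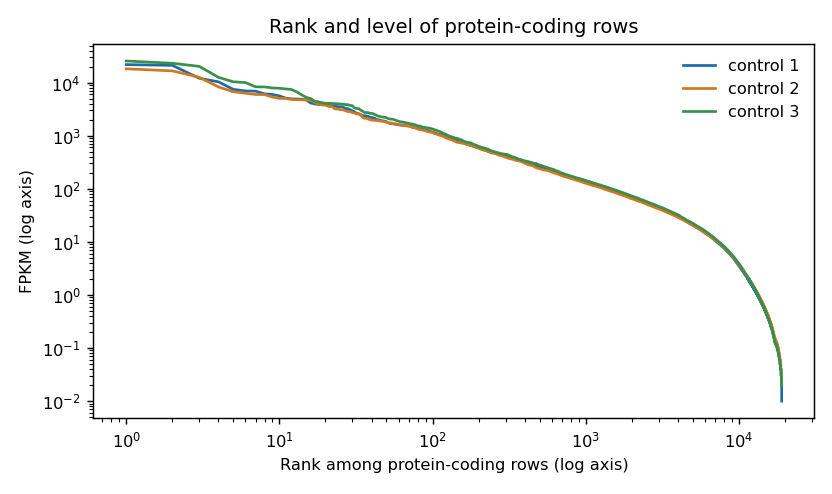
FPKM (y axis, log) against rank among protein-coding rows (x axis, log) in each control library. The 3 curves run close together, with control 3 highest over the first ranks.

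Among rows of other types, the 3 highest by mean were AC006483.1, AL592188.7 and RNA28S5, a 28S ribosomal RNA row, at 112917, 69233 and 43527 FPKM in control 2 and listed at 0 in controls 1 and 3. None of these 3 is a level of the untreated cells as a group. They moved the concentration of the table: the 10 highest rows held 9.30%, 21.7% and 13.1% of all FPKM in controls 1, 2 and 3. Within nuclear protein-coding rows the same share was even, at 12.1%, 11.2% and 13.2%. No transcript length was at hand for these 3 rows. The next row of other types by mean, CTD-2328D6.1, stood at 10558, 10610 and 15219 FPKM in controls 1, 2 and 3. Among rows with 1 transcript of known length, the shortest length at which most rows held a value was 99 nt in control 1, 83 nt in control 2 and 162 nt in control 3.

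Mitochondrially encoded genes held 3.62%, 2.92% and 5.61% of FPKM. MT-CO1, the core subunit of cytochrome oxidase, stood at 3977, 4220 and 4038 FPKM, and MT-CYB, cytochrome b of complex III, at 1405, 1426 and 1457 FPKM. The shortest of them were uneven: MT-ATP8 stood at 3712, 3551 and 10384 FPKM and MT-ND4L at 10371, 8320 and 20274 FPKM. Control 3 was again the high library in both.

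Protein-coding genes above the floor varied little between libraries. The coefficient of variation (CV, the SD as a percentage of the mean) had a median of 9.86% over the 9750 protein-coding rows above the floor, and 110 of them (1.13%) exceeded 50%. Over the 27061 rows of every type with a mean of at least 1 FPKM, the floor not considered, the median CV was 22.2% and 36.0% exceeded 50%. Among the 9750 protein-coding rows above the floor, control 3 stood apart most often. In it 76 of these 9750 rows were over 2-fold higher than in both other libraries and 23 over 2-fold lower. The same counts were 8 and 0 for control 1 and 7 and 8 for control 2. Across the same 9750 rows the libraries correlated with Pearson's r of 0.985 to 0.991 on log2(FPKM + 1). This is a description across genes, which are not independent replicates.

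The 10 protein-coding genes with the highest CV among those with a mean of at least 10 FPKM each owed it to a single library. Control 3 was the high library for CRX, RDH12, HMSD, CACNA1I and USP41, and control 2 for PLET1, C3orf84, PMS2, CREB5 and CEP97. In 8 of the 10 the floor itself was over 5-fold higher in that library. CEP97, a centrosomal protein, stood at 59.2 FPKM in control 2, where its floor was 62.6 FPKM, and at 3.88 and 5.41 FPKM in controls 1 and 3. PLET1 and C3orf84 were the exceptions, at 89.9 and 46.1 FPKM in control 2 with floors of 0.327 and 0.864 FPKM there.

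The labelled cell type was checked against its markers. Of 20 retinal pigment epithelium markers, 13 passed 1 FPKM in every library, a share of 65% beside 68.2% of all protein-coding rows, but only 5 were above the floor, 25% beside 51.2%. Those 5 were KRT8, KRT18, RDH5, MITF and OTX2, and 14 of the 20 were at the floor. Their median level was 1.34 FPKM, beside 4.55 FPKM over all protein-coding rows. Most defining markers of the mature tissue were therefore not distinguishable from no reads, and the cells are called here by their line name.

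KRT8, a keratin of simple epithelia, stood at 774, 749 and 933 FPKM, and its partner KRT18 at 427, 472 and 426 FPKM. Both keratins were far above their floors, which reached 6.02 FPKM for KRT8 and 0.965 FPKM for KRT18. RLBP1, the retinal carrier of the visual cycle, stood at 1.00, 1.04 and 1.28 FPKM on floors of 0.926, 1.03 and 1.07 FPKM. SERPINF1, a secreted inhibitor of vessel growth, stood at 3.3, 5.33 and 3.62 FPKM on floors of 2.72, 3.05 and 2.86 FPKM. Of these 4 genes the keratins were clearly expressed, and RLBP1 was not distinguishable from no reads. SERPINF1 was also at the floor by the rule used here, with a mean of 1.42 times its floor.

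**Figure D3:**
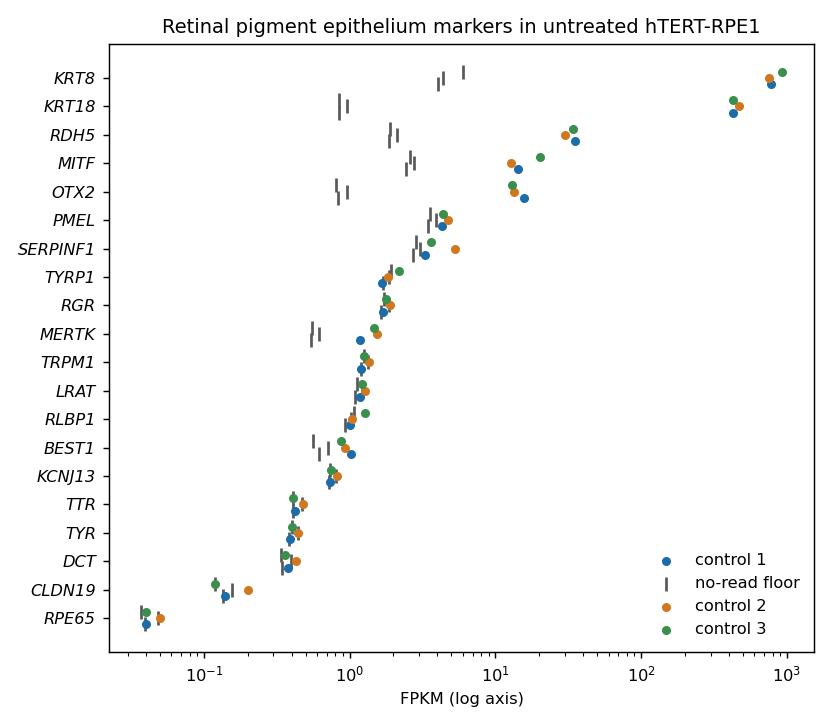
FPKM (x axis, log) of the 20 retinal pigment epithelium markers in each control library (points), with the no-read floor of each library as grey ticks. KRT8, KRT18, RDH5, MITF and OTX2 stand clear of their floors, and most other markers sit on them.

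In the visual cycle, 4 of 12 listed genes (33.3%) were above the floor, beside 51.2% of all protein-coding rows. RDH11, a retinol dehydrogenase found in many tissues, stood at 55.7, 52.5 and 54.8 FPKM, and RDH5, the 11-cis retinol dehydrogenase, at 35.4, 30.1 and 34.2 FPKM. RDH10, another retinol dehydrogenase, stood at 7.63 ± 0.784 FPKM. RPE65, the isomerase of the cycle, stood at 0.04, 0.05 and 0.04 FPKM, LRAT, which esterifies retinol, at 1.22 ± 0.0513 FPKM, and RGR at 1.80 ± 0.0961 FPKM, all at the floor.

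Of 14 pigment genes, 5 (35.7%) were above the floor, beside 51.2% of all protein-coding rows. The enzymes and matrix protein of melanin synthesis, TYR, TYRP1, DCT and PMEL, were at the floor, TYR at 0.39, 0.44 and 0.40 FPKM. The members above the floor were MITF, MLPH, RAB27A, GPNMB and GPR143. MLPH, a linker of melanosomes to myosin, stood at 83.5, 87.3 and 84.1 FPKM, RAB27A, which recruits it, at 10.3 ± 1.14 FPKM, GPNMB at 64.5 ± 1.99 FPKM and the receptor GPR143 at 8.51 ± 2.40 FPKM. MITF, the transcription factor that drives pigment genes, stood at 14.3, 12.7 and 20.3 FPKM. The melanosome membrane transporters OCA2, SLC24A5 and SLC45A2 did not pass, at 1.33 ± 0.249, 0.55 ± 0.165 and 1.04 ± 0.191 FPKM.

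Of the 16 genes for phagocytosis and transport, 10 (62.5%) were above the floor, beside 51.2% of all protein-coding rows. SLC16A3, a lactate exporter, stood at 899, 781 and 1054 FPKM, BSG, its chaperone basigin, at 619 ± 25.7 FPKM, and ITGB5, the integrin chain that binds shed photoreceptor tips together with ITGAV, at 490 ± 30.5 FPKM. ITGAV was lower at 28.96 ± 1.63 FPKM. GAS6, the ligand of the MERTK receptor, stood at 405, 379 and 411 FPKM, while MERTK itself stood at 1.18, 1.55 and 1.47 FPKM, 2.46 times its floor on average. SLC16A8, the lactate transporter typical of this epithelium, was at the floor, as were BEST1, KCNJ13 and CLDN19.

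Secreted and matrix genes were above the floor for 6 of 12 (50%), near the 51.2% of all protein-coding rows. CTSD, the lysosomal protease that digests photoreceptor tips, was the highest identity gene at 2432, 2133 and 2329 FPKM. CST3, a protease inhibitor, stood at 420 ± 34.0 FPKM, EFEMP1, a matrix fibulin, at 154 ± 21.9 FPKM, VEGFA at 149 ± 10.2 FPKM and TIMP3, a matrix-bound inhibitor of metalloproteases, at 20.4 ± 1.49 FPKM. SULF1 and FBLN1 were at the floor.

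Of 13 transcription factors of the eye field and retinal pigment epithelium, 7 (53.8%) were above the floor, near the 51.2% of all protein-coding rows. PAX6, the regulator of eye development, stood at 42.0, 36.8 and 46.9 FPKM, SIX3 at 42.6, 38.9 and 45.7 FPKM and OTX2, which specifies retinal pigment epithelium, at 15.7, 13.5 and 13.1 FPKM. SOX9 stood at 57.7 ± 6.35 FPKM and ZNF503 at 39.1 ± 3.03 FPKM. RAX and SIX6, factors of the early eye field, were at the floor. CRX, the photoreceptor factor, was listed at 6.22, 5.04 and 73.3 FPKM with floors of 8.35, 6.81 and 75.4 FPKM, so its value in control 3 is not evidence of reads.

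Over all identity lists, 36 of 72 genes (50%) were above the floor, close to the 51.2% of all protein-coding rows. Their median level was 6.58 FPKM. A share near the background says nothing particular of the lists.

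Genes of polarised epithelia were mostly at the floor, with a median of 1.39 FPKM. Of 20, 12 (60%) passed 1 FPKM, beside 68.2% of all protein-coding rows. Only LSR (5%, beside 51.2%), a receptor found at tricellular junctions, was above the floor, at 1.28, 1.71 and 1.91 FPKM. CDH1, the epithelial cadherin, stood at 2.41, 2.59 and 3.55 FPKM on floors of 2.41, 2.60 and 3.37 FPKM. EPCAM, GRHL2, ESRP1, ESRP2, CLDN3, CLDN7 and RAB25 were at the floor as well. MUC1, a membrane mucin, stood at 36.9, 27.1 and 63.4 FPKM, but its floor in control 3 was 32.9 FPKM and it did not pass.

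Of 25 listed mesenchymal genes, 21 were above the floor, 84% beside 51.2% of all protein-coding rows. In every library 10 of the 25 reached 100 FPKM, beside 1234 of 19052 protein-coding rows. The list was chosen with earlier results of these data known, so neither share is an independent check. Fibroblast genes, among them PDGFRA, DCN and LUM, were listed apart, and 1 of those 10 was above the floor. The median level of the 25 mesenchymal genes was 34.7 FPKM. After VIM came the matrix proteins SPARC at 1589, 1414 and 1805 FPKM and fibronectin, FN1, at 1279, 1188 and 1215 FPKM. The hyaluronan receptor CD44 stood at 1086 ± 108 FPKM, the surface protein THY1 at 967 ± 83.3 FPKM and the metalloprotease MMP2 at 878 ± 39.7 FPKM. The transcription factors TWIST1, ZEB2, TWIST2, ZEB1 and SNAI2 stood between 7.43 and 34.7 FPKM and were all above the floor. The collagen gene COL1A1 was above the floor at 20.6, 20.9 and 22.5 FPKM. The 4 genes that did not pass were the collagens COL1A2 and COL3A1, at the floor with 2.23 ± 0.162 and 4.54 ± 2.67 FPKM, and S100A4 and POSTN at 5.40 ± 1.09 and 2.73 ± 0.329 FPKM.

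Markers of other cells were mostly at the floor, 53 of 73 genes, with 9 (12.3%) above it and a median of 1.11 FPKM, beside 31.8% at the floor and 51.2% above it over all protein-coding rows. None of 8 blood, 7 endothelial or 11 photoreceptor genes was above the floor at 1 FPKM or more, and 1 of 10 fibroblast genes was, PRRX1 at 13.2 ± 2.22 FPKM. The highest photoreceptor row after CRX was SAG at 9.59 ± 6.11 FPKM, the highest blood rows PTPRC and HBB at 3.67 ± 0.701 and 1.48 ± 0.194 FPKM and the highest endothelial rows PECAM1 and VWF at 2.17 ± 0.218 and 1.37 ± 0.0945 FPKM, all at the floor. Of 7 neuronal genes 3 (42.9%) were above the floor: TUBB3, the highest of all these genes at 703, 725 and 60.2 FPKM in its main row, SYT1 at 11.8 ± 0.205 FPKM and SNAP25, of synaptic vesicle fusion, at 3.52 ± 0.517 FPKM. Besides PRRX1, the others above the floor were TFAP2A, a factor of neural crest and other ectoderm, at 36.8, 37.0 and 36.9 FPKM, GLUL, glutamine synthetase, at 98.3 ± 4.60 FPKM, KRT10 at 21.3 ± 3.49 FPKM and the widely expressed CRYZ and CRYL1 of the crystallin list at 11.6 ± 1.05 and 6.18 ± 0.356 FPKM. SOX10, a melanocyte factor, was listed at 23.0, 14.4 and 0.30 FPKM, values that follow its floors of 21.4, 13.5 and 0.294 FPKM.

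All 12 genes of telomerase and of shelterin, the complex that caps telomeres, were above the floor, beside 51.2% of all protein-coding rows, with a median of 26.4 FPKM. TERT, the catalytic subunit that most body cells leave silent and that this line received as an added gene, stood at 13.2, 12.8 and 14.8 FPKM, 9.80 times its floor. The table cannot tell an added copy from the cell's own gene. The RNA-binding partners NHP2, NOP10 and DKC1 stood at 155 ± 6.58, 122 ± 13.4 and 97.4 ± 9.28 FPKM, and the shelterin genes ran from POT1 at 14.8 ± 1.84 to ACD at 35.3 ± 3.51 FPKM.

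Of 34 primary cilium genes, 20 (58.8%) were above the floor, near the 51.2% of all protein-coding rows, and 13 were between 1.5 and 3 times the floor or passed 3 times in some libraries only. ARL3, a small GTPase of cilia, was the highest at 45.3, 54.3 and 50.4 FPKM, followed by the transport protein IFT57 at 46.5 ± 1.65 FPKM and TULP3, which loads receptors into cilia, at 46.3 ± 5.80 FPKM. The Hedgehog transducer SMO stood at 12.01, 10.6 and 13.8 FPKM. BBS7 was listed at 84.1 FPKM in control 3, where its floor was 53.8 FPKM, against 15.4 and 26.0 FPKM.

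Of 27 secreted factors, 23 (85.2%) were above the floor, beside 51.2% of all protein-coding rows, with a median of 29.7 FPKM. This list too was chosen with earlier results of these data known. MIF, a cytokine, stood at 1693, 1628 and 1769 FPKM, and the matricellular proteins CYR61 and CTGF, both targets of YAP, at 328 ± 1.69 and 229 ± 17.1 FPKM. TGFB1 stood at 192 ± 21.6 FPKM, the cytokine LIF at 106 ± 7.67 FPKM and the WNT inhibitor DKK1 at 105 ± 13.2 FPKM. The inflammatory cytokine IL6 was at the floor with 2.00, 3.28 and 1.87 FPKM, and the stress cytokine GDF15, over 3 times its floor but under 1 FPKM, stood at 0.57, 0.33 and 0.36 FPKM.

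All 27 reference genes were above the floor, beside 51.2% of all protein-coding rows. They spanned a wide range, from TBP, the TATA-binding protein, at 27.8, 24.3 and 29.7 FPKM to ACTB. B2M, the light chain of MHC class I, stood at 407 ± 56.5 FPKM and HPRT1, of purine salvage, at 45.7 ± 4.56 FPKM.

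Paralogue choice was described in 167 families with a summed level of at least 10 FPKM, of 177 listed. Each symbol was read from 1 row, and the floor was not considered. All 5 creatine kinases were at the floor, as were all 5 GRHL and ESRP regulators, so their shares compare values not distinguishable from no reads. CRX, also at the floor, was counted as leader of the OTX and CRX factors. A single member held 90% or more of the family's FPKM in 43 families, 50 to 90% in 93 and under 50% in 31. The median share of the leader was 71.1%. The leader was the same in all 3 libraries in 155 families, and in 147 its range lay wholly above that of the next member. By category the median share was 92.3% in 12 glycolysis families and 90.7% in 13 translation families, beside 52.3% in 30 families of transcription factors and chromatin proteins. The lists differ in length, from 2 members for eEF1A to 19 for SOX factors, and a leader of 2 cannot hold under 50%. These medians therefore cannot separate category from list length.

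**Figure D4:**
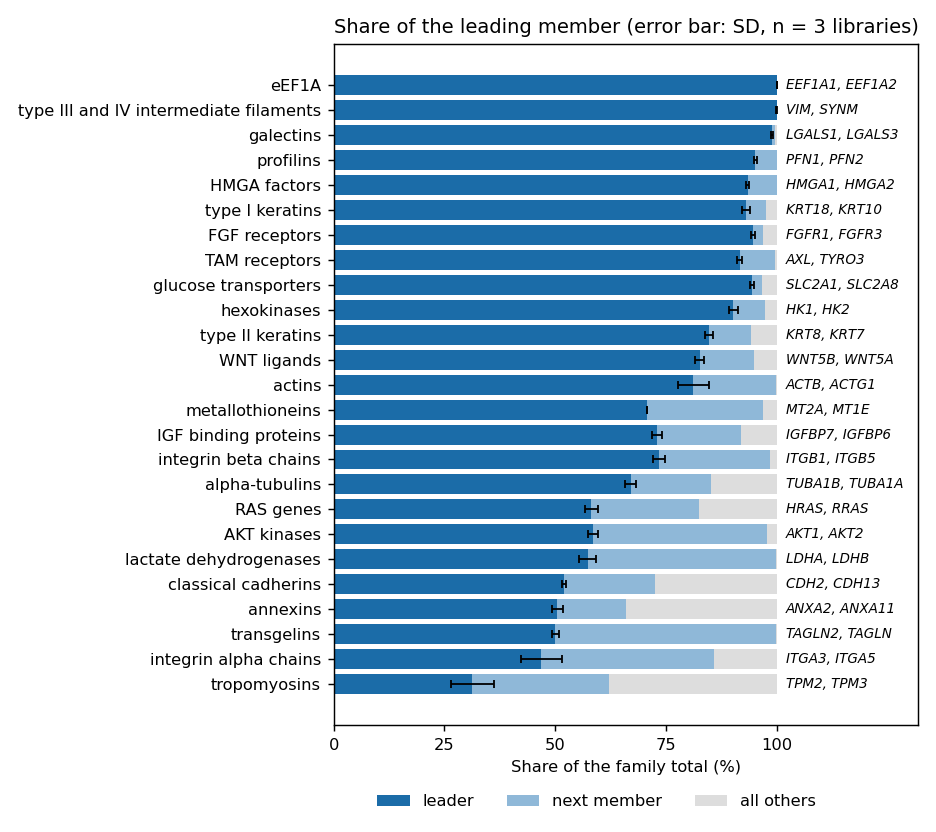
Share of the family's summed FPKM (x axis, percent) held by the leading member, the next member and all others in 25 families, as means over 3 libraries with the SD of the leader's share. The leader holds nearly all of the eEF1A and vimentin families and about 31% of the tropomyosins.

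Actins were almost wholly cytoplasmic. ACTB held 81.2% ± 3.43 of the family and ACTG1 18.7% ± 3.41, at 5110, 5045 and 4077 FPKM. The smooth muscle actin ACTA2 stood at 37.2, 36.7 and 32.5 FPKM, and the muscle actins ACTA1 and ACTC1, whose promoter windows hold TATAAA, stood at 0.71, 0.62 and 0.61 FPKM and 0.42, 0.48 and 0.43 FPKM. ACTC1 was at the floor, and ACTA1 was above 1.5 times but under 3 times.

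The intermediate filament families were similarly uneven. VIM held nearly all of the type III and IV filaments, with SYNM next at 2.97, 3.54 and 3.34 FPKM and the muscle filament DES at the floor. KRT18 held 93.1% ± 0.903 of type I keratins and KRT8 84.7% ± 0.831 of type II keratins, before KRT7 at 95.9, 77.0 and 103 FPKM. LMNA, the A-type lamin, held between 87.6% and 89.5% of lamins, and MYH9 between 92.5% and 94.6% of non-muscle and smooth muscle myosin II heavy chains. Tropomyosins had no clear leader: TPM2 stood at 475, 536 and 356 FPKM and TPM3 at 424, 428 and 488 FPKM. TAGLN2 and TAGLN, actin-binding transgelins, were level at 643, 673 and 685 FPKM and 651, 686 and 660 FPKM.

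Tubulins depend on how rows are read. TUBA1B held 67.1% ± 1.23 of alpha-tubulins, before TUBA1A at 2033, 1734 and 2049 FPKM. Among beta-tubulins TUBB4B led at 1604, 1539 and 1678 FPKM when each symbol was read from 1 row. The symbol TUBB is spread over 8 rows, 7 of them not in the reference annotation. The row read for it stood at 44.4, 22.5 and 24.9 FPKM, while all 8 sum to 3426, 3315 and 3540 FPKM. With rows summed TUBB led in place of TUBB4B, so the lead of TUBB4B rests on reading 1 row of TUBB. TUBB3, the neuronal beta-tubulin, has 2 rows: 1 stood at 703, 725 and 60.2 FPKM and the other at 123.5, 24.7 and 783 FPKM. Their sum was even, at 827, 749 and 843 FPKM, so the drop of the first row in control 3 is matched by the rise of the second.

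**Figure D5:**
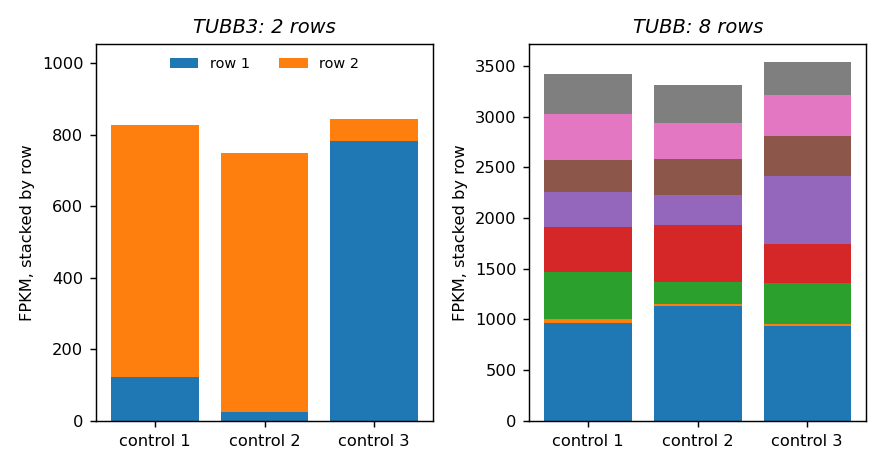
FPKM (y axis) of the rows that share the symbols TUBB3 and TUBB, stacked by row, in each control library. The total of TUBB3 stays between 749 and 843 FPKM while its 2 rows trade places in control 3.

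Among cell adhesion genes the leading classical cadherin was not CDH1, which was at the floor. CDH2, N-cadherin, held 52.0% ± 0.482 of classical cadherins at 62.6, 61.6 and 63.2 FPKM, before the membrane-anchored CDH13 at 24.99, 24.1 and 24.4 FPKM. Claudins, the tight junction proteins, were led by CLDN12 at 37.7, 28.8 and 38.3 FPKM and CLDN11 at 14.4, 12.8 and 14.9 FPKM. GJA1, connexin 43, held 84.5% ± 2.12 of connexins. ITGB1 held 73.4% ± 1.40 of integrin beta chains, while ITGA3 and ITGA5, receptors for laminin and fibronectin, shared the alpha chains at 866, 749 and 1110 FPKM and 832, 669 and 747 FPKM, with overlapping ranges. SDC1, a heparan sulfate carrier, stood at 440, 369 and 453 FPKM, and CAV1, of caveolae, held between 90.2% and 91.8% of caveolins.

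In glycolysis widely used isoforms led the families named here. SLC2A1, the basal glucose transporter, held 94.5% ± 0.435 at 614, 543 and 713 FPKM. HK1 held 90.2% ± 0.924 of hexokinases, with HK2 at 22.7, 20.0 and 22.2 FPKM. ALDOA, at 2808, 2550 and 3231 FPKM, held 99.9% of aldolases, and PKM nearly all of the pyruvate kinases. Lactate dehydrogenase was shared: LDHA stood at 990, 1155 and 885 FPKM and LDHB at 680, 855 and 713 FPKM, and their ranges did not overlap.

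Metallothioneins bind zinc and copper. MT2A held an even share over the libraries, 70.7% ± 0.0242, and MT1E, at 1873, 1941 and 1830 FPKM, most of the rest. Peroxiredoxins, which reduce peroxides, were spread over 6 members, with the lead not the same in every library. ALDH1A3, which makes retinoic acid, held 72.0% ± 2.34 of the retinal and aldehyde dehydrogenases, at 380, 302 and 398 FPKM. Of the mitochondrial ADP/ATP carriers SLC25A6 and SLC25A5 stood at 1287, 1148 and 1346 FPKM and 1069, 943 and 1124 FPKM.

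Among receptors and ligands FGFR1 held 94.5% ± 0.454 of FGF receptors, at 155, 141 and 148 FPKM. AXL held 91.6% ± 0.523 of the TAM receptors, at 287, 244 and 291 FPKM, the family in which MERTK is the phagocytic receptor of retinal pigment epithelium. WNT5B held 82.6% ± 1.03 of WNT ligands, at 313, 273 and 322 FPKM, before WNT5A at 51.3, 34.5 and 51.2 FPKM. FGF5 led the FGF ligands at 33.6, 49.1 and 42.8 FPKM, and IGFBP7 the IGF binding proteins at 1345, 1199 and 1445 FPKM. ERBB2 held between 63.9% and 68.8% of the EGF receptor family, with EGFR next. HRAS, at 250, 220 and 296 FPKM, stood above RRAS at 110, 94.3 and 115 FPKM, and AKT1 above AKT2 at 299, 240 and 283 FPKM and 193, 167 and 188 FPKM.

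Transcription factor families had the lowest median leader share, with the limit of list length given above. PAX6 and PAX8 stood first and second among PAX factors, PAX8 at 28.7, 30.4 and 30.7 FPKM, with ranges that did not overlap. SIX3 held between 49.2% and 51.2% of its own family, and TEAD4, a partner of YAP, stood at 60.1, 59.0 and 70.1 FPKM. HMGA1, a chromatin protein typical of dividing cells, held 93.4% ± 0.263 of its family at 1946, 1954 and 1852 FPKM, and HMGA2, usually restricted to the embryo and tumours, stood at 142, 131 and 131 FPKM. The retinoid X receptors were led by RXRA when 1 row was read and by RXRB when its 6 rows were summed. The row read for RXRB had a mean of 3.19 FPKM and the sum of its rows a mean of 89.2 FPKM.

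HOX genes, which mark position along the trunk and are little used in the head, were mostly at the floor. Of 39 genes in 4 clusters, 24 were at the floor, beside 31.8% of all protein-coding rows. Above it at 1 FPKM or more in every library were 6, beside 51.2%, and none reached 10 FPKM in every library. HOXB9 stood at 8.03, 7.95 and 8.69 FPKM. HOXB2 stood at 11, 5.75 and 79.9 FPKM, so it led the HOXB cluster in controls 1 and 3 and HOXB9 led in control 2. AGO3 led the Argonautes, which load small RNAs, with 30.7%, 25.4% and 62.0% of the family, and AGO2 led without control 3.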

How the data were processed

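The table of 53361 gene rows was used as deposited. Per the submitters' processing notes, the tools were RSEM 1.2.6 and Bowtie 1.0.0 and the build was GRCh37 (hg19). The deposited values were taken as FPKM: the header names no unit, and library sums differed (1178626, 1409337 and 1100825 in controls 1 to 3). No scaling was added. No depth is known per library, and counting error cannot be stated. Gene types and transcript lengths came from GENCODE 29, matched by Ensembl ID. Of the rows, 9866 were not in it. All transcripts of 69.2% of protein-coding rows had a length, and the floor of other rows was scaled up.

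The no-read floor was the 10% quantile of value times length over single-transcript rows with a positive value, binned by length. It was summed over the transcripts of a row. The fit was tested on simulated single-transcript rows built with a known value for no reads. That test did not cover summing over transcripts or scaling up for missing lengths. For 198 protein-coding rows the floor was missing or exceeded the level (ratio under 0.75) and was not used. The floor rules were chosen after seeing the data.

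Families (177) and lists (21) held 1148 symbols, of which 1147 had a row. Members and lists were chosen with earlier results of these data known. A symbol with several rows was read from the row of its current gene ID, else the highest. Named genes were the 25 highest nuclear protein-coding rows and 5 highest others, leaders and next members of families, list members, and the 10 highest CV among protein-coding rows with a mean of at least 10 FPKM. Alternatives changed thresholds, scaling, pseudocount, length filter, row summing and libraries. Python 3.11.15 with pandas 2.3.3 and numpy 2.4.6 was used. Some items are not reported here.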

Additional observations from a re-analysis of the deposited data

How the results depend on the processing

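The count of protein-coding rows at 1 FPKM stayed within 1.5 times of 13002 in each alternative run. Over all rows the count of 18118 became 9747 at 5 FPKM, 10611 with 3 times the floor and 11578 with 2 times the floor, and ranged from 18392 to 23187 when 1 library was left out. Identity genes at 1 FPKM, 54, became 35 at 5 FPKM (54 to 56 without 1 library). Polarised epithelium genes, 12, became 1 at 5 FPKM and 1 with 3 times the floor, and genes of other cells, 37, became 13 and 9. The median SD of log2(FPKM + 1), 0.249, was 0.0930 with no filter on low values and 0.137 for rows above the floor, and ranged from 0.161 (without control 3) to 0.266 when 1 library was left out. Families with 1 member at 90% or more, 43, became 66 at a threshold of 80%. Leaving out control 3 changed the leader of 4 families: transgelins, tetraspanins, Argonautes, and OTX and CRX factors, where OTX2 then led. Summing rows that share a symbol made TUBB and RXRB the leaders of 2 families. Rescaling to TPM moved 21 of 29 gene levels by over 1 SD, and subtracting the floor moved 70 of 161 leader shares by over 1 SD and changed 1 leader, CRX to OTX2. The floor rules were added after seeing the data. Why these values changed was not tested, apart from the stricter thresholds, which keep fewer genes by construction. No paired analysis was possible because only 1 group was used. Read counts are unknown, so genes near the floor cannot be called absent.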

Other observations

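Further families of receptors and regulators showed the same kind of preference, given here as levels. The ephrin receptor EPHA2 stood at 318, 255 and 302 FPKM in controls 1, 2 and 3 and held 67.3% ± 0.274 of the EPH receptors. MET, the receptor of hepatocyte growth factor, stood at 96.9, 69.4 and 92.1 FPKM, and LPAR1, a lysophosphatidic acid receptor, at 89.8, 80.1 and 97.1 FPKM. FZD2, a WNT receptor, stood at 125, 108 and 130 FPKM and NOTCH2 at 113, 68.9 and 104 FPKM. In each of these 5 families the range of the leader lay above that of the next member.

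Among transcription factors, FOXC2, known from mesenchyme and vessels, stood at 65.6, 63.9 and 68.7 FPKM and led its list of FOX factors. KLF2, a zinc finger factor best known from endothelium, stood at 131, 114 and 122 FPKM, although 0 of 7 endothelial markers were above the floor. STAT6 stood at 151, 144 and 162 FPKM, RUNX1 at 52.0, 37.7 and 57.2 FPKM and GATA6 at 19.3, 21.2 and 22.9 FPKM. The cytidine deaminase APOBEC3B stood at 31.9, 34.7 and 34.1 FPKM and held 64.7% ± 1.58 of its family.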
